A study of Mus musculus with 6 samples.

Results

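A set of 10 transcription factor genes that steer endothelial cells towards artery or vein was followed in brain endothelial cells of mice with a conditional deletion of the Notch effector Rbpj. They were the SoxF genes Sox7, Sox17 and Sox18, the COUP-TF genes Nr2f1 and Nr2f2, the forkhead genes Foxc1 and Foxc2, the ETS genes Ets1 and Erg, and Gata2. Each was taken by its mouse symbol, and all 10 were found as 1 row each among the 55450 gene rows of the count table. All 10 passed the filter on low counts.

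Arterial identity is set early in vessel growth by VEGF and Notch signalling, in which the DNA-binding protein Rbpj carries the signal of cleaved Notch receptors to target genes. SoxF and ETS factors act on enhancers of arterial genes such as Dll4 and Notch1, and Foxc factors act on Dll4 and Hey2. The nuclear receptor COUP-TFII, encoded by Nr2f2, favours vein by holding Notch genes down, and Gata2 with the ETS factors keeps up the general endothelial programme.

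The samples were 6 poly(A) RNA-seq libraries of CD31-positive brain cells, enriched on magnetic beads from mice at postnatal day 7. All mice carried Cdh5(PAC)-CreERT2, a tamoxifen-activated Cre recombinase under the promoter of the endothelial gene Cdh5, and tamoxifen was given to all of them at 100 µg on days 1 and 2 after birth. The 3 control libraries came from Rbpjflox/WT mice, which also carry 1 floxed allele of Rbpj, and the 3 mutant libraries from Rbpjflox/flox mice, on a mixed FVB/N and C57BL/6 background with males and females not separated. RNA of many mice was pooled in each group and sequenced in triplicate, and the labels leave unclear whether a group's 3 libraries had separate pools behind them. If they had not, the spread that the p-values rest on is technical.

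All 10 are protein-coding genes, placed here by the GENCODE M21 annotation of GRCm38, and values are sums over all exons of a gene. Sox7 (ENSMUSG00000063060) lies at chr14:63943673-63950732 on the plus strand, Sox17 (ENSMUSG00000025902) lies at chr1:4490931-4497354 on the minus strand and Sox18 (ENSMUSG00000046470) lies at chr2:181669836-181671640 on the minus strand. Nr2f1 (ENSMUSG00000069171) lies at chr13:78188973-78199757 on the minus strand and Nr2f2 (ENSMUSG00000030551) lies at chr7:70351944-70366735 on the minus strand. Foxc1 (ENSMUSG00000050295) lies at chr13:31806633-31812476 on the plus strand and Foxc2 (ENSMUSG00000046714) lies at chr8:121116171-121118895 on the plus strand. Ets1 (ENSMUSG00000032035) lies at chr9:32636221-32757820 on the plus strand and Erg (ENSMUSG00000040732) lies at chr16:95359169-95586593 on the minus strand. Gata2 (ENSMUSG00000015053) lies at chr6:88193891-88207032 on the plus strand. Foxc1 and Foxc2 each have 1 exon.

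Total counts were 75744913 to 82092461 per library, where about 4 counts stand for 1 read pair. The difference between 2 libraries was set against sampling noise as the median chi-square over its expectation. It was 1.87 to 2.78 within a group and 6.01 to 7.02 between groups. This ratio is of squared differences, on counts divided by 4, over genes above a floor of read pairs. Rbpj itself had 54.3, 54.3 and 53.8 CPM (counts scaled to the TMM-adjusted library total) in the control and 47.9, 46.8 and 45.2 CPM in the mutant libraries (log2 fold change -0.21 ± 0.042 SE, adjusted p = 0.0129). The Rbpj count is a sum over all exons and was not read exon by exon, so it is no check of the deletion itself. Leaving out control library 1 gave Rbpj an adjusted p of 0.0571, control library 2 gave 0.0543 and mutant library 2 gave 0.051. The 8 endothelial markers that checked the cell type summed to 11805 to 12128 CPM in control and 11998 to 13004 CPM in mutant libraries, with Pecam1 and Tie1 higher and Cdh5 and Tek lower. Markers of other cells were also read. The 5 choroid plexus markers summed to 5109 to 5557 CPM in control and 3455 to 4495 CPM in mutant libraries (2 lower). Most of that sum was Ttr, at 5168 ± 218 and 3983 ± 563 CPM (SD, n = 3), which was not called (adjusted p = 0.0882). The 8 microglia markers summed to 1064 to 1065 CPM in control and 819 to 854 CPM in mutant libraries (5 lower). The 8 astrocyte markers summed to 486 to 541 and 267 to 395 CPM (1 lower). Gja1, the largest part of the astrocyte sum, had 269 ± 8.4 CPM in control libraries (SD, n = 3). In mutant libraries 1, 2 and 3 Gja1 had 201, 79.2 and 198 CPM and was not called (adjusted p = 0.326). No marker was at 0 in all libraries. In bulk libraries, fewer cells of a type and less RNA per cell cannot be told apart.

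Of the 10 factors, Sox7 and Ets1 were higher in the mutant and Sox18, Foxc2 and Gata2 lower, by the edgeR quasi-likelihood test at a Benjamini-Hochberg adjusted p under 0.05. Sox17, Nr2f1, Nr2f2, Foxc1 and Erg were not called. Of all 19549 genes tested, 14.4% were called, 7.56% higher and 6.83% lower. Among the 11738 tested genes with a mean of at least 5 CPM, as 9 of the 10 factors had, 20.8% were called. The 3 control and 3 mutant values did not overlap for 7 of the 10 factors (2 higher, 5 lower), against 34.1% of all tested genes (16.8% higher, 17.3% lower). The median absolute log2 fold change was 0.25 for the factors, 0.19 for all tested genes and 0.41 for all called genes, and the median signed change was -0.16 for the factors and -0.01 for all tested genes.

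**Figure D1:**
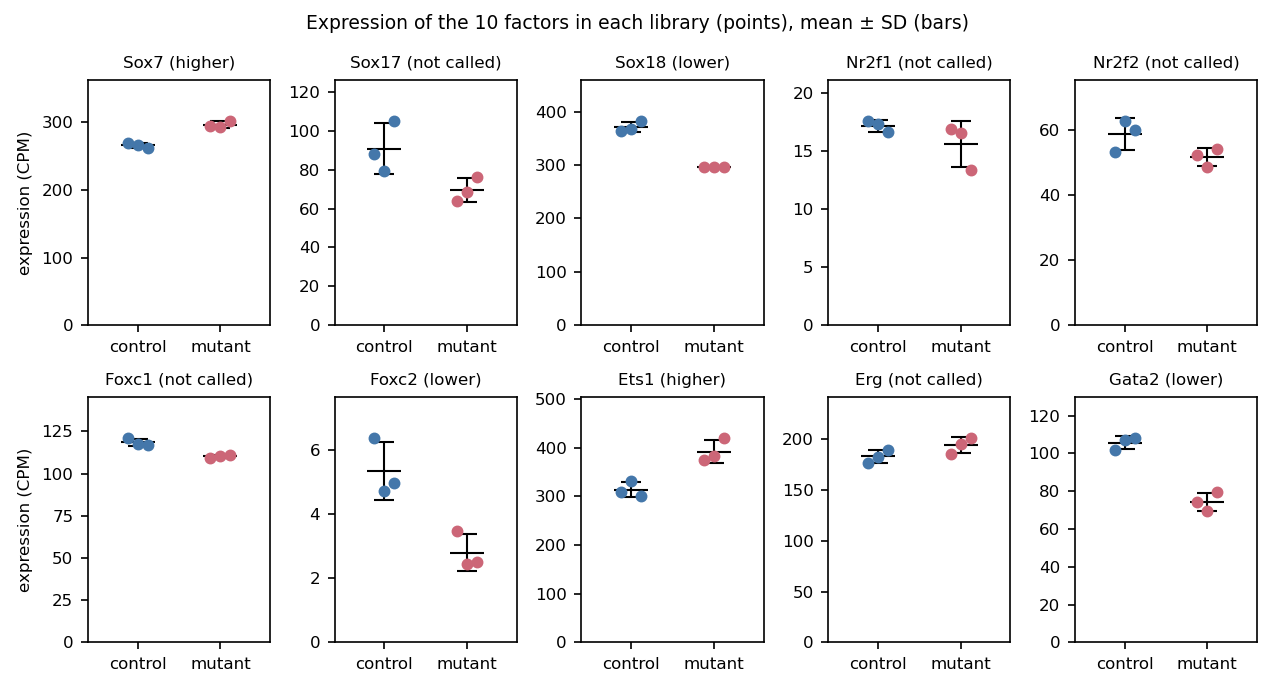
Expression of each factor in CPM (vertical axes, each starting at 0) in the 3 control and 3 mutant libraries (points), with mean and SD (bars). Control and mutant points are separate for 7 factors and overlap for Nr2f1, Nr2f2 and Erg.

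Compared per kilobase of exon (RPKM), the factors spanned a wide range, and their order was nearly the same in both groups. Sox18 had the highest level, 229 ± 6.15 RPKM in control libraries (SD, n = 3), followed by Sox7 at 80.5 ± 1.11, Erg at 52.8 ± 1.75 and Ets1 at 37.1 ± 1.89. Foxc1, Gata2 and Sox17 lay close together at 20.3 ± 0.38, 19.6 ± 0.649 and 19.1 ± 2.73 RPKM, with overlapping libraries. Nr2f2 had 6.8 ± 0.564, Nr2f1 3.37 ± 0.101 and Foxc2 1.97 ± 0.329 RPKM. In the mutant libraries Foxc1, at 18.9 ± 0.173 RPKM, stood above Sox17 at 14.6 ± 1.27 and Gata2 at 13.8 ± 0.898, and only the last 2 overlapped. Among all tested genes, the mean level of Sox18 was at percentile 98.9 and that of Foxc2 at percentile 39.3.

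The SoxF genes encode closely related HMG-box proteins that act in growing vessels, and Sox17 is the one most tied to arteries. Sox18, also known for its role in lymphatic development, had 365, 367 and 383 CPM in control libraries and 297, 296 and 297 CPM in mutant libraries. All 3 mutant libraries lay below all controls. The SD of the mutant libraries, 0.666 CPM, rests on 3 values and is no measure of precision, which follows read pairs. Sox18 fell 1.25-fold (log2 fold change -0.33 ± 0.032 SE, adjusted p = 0.000496), and the call held under all 14 alternatives. The 5 lymphatic endothelial markers summed to 624 to 639 CPM in control and 586 to 629 CPM in mutant libraries. Among them the chemokine gene Ccl21a fell from 303 ± 11 to 222 ± 4.14 CPM (log2 fold change -0.45, adjusted p = 0.000228) and Flt4, which other endothelial cells express too, rose from 298 ± 6.77 to 357 ± 20.3 CPM. The lymphatic fate gene Prox1 had 4.26 ± 0.615 and 5.13 ± 0.984 CPM and was not called (adjusted p = 0.4), and none of the 5 was at 0. The part of lymphatic cells in the values of Sox18 and Foxc2 was not tested.

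Sox7 moved the other way. It had 269, 266 and 262 CPM in control and 294, 292 and 302 CPM in mutant libraries, without overlap. The rise was 1.11-fold (log2 fold change 0.16 ± 0.031 SE, adjusted p = 0.0136). Without control library 2 the adjusted p was 0.0508 at a log2 fold change of 0.16, so the size stayed while the call was lost.

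Sox17 had 88.0, 79.6 and 105 CPM in control libraries and 64.1, 68.4 and 76.1 CPM in mutant libraries. The groups did not overlap, but the control values were spread widely, with an SD of 14.3% of the mean. Its log2 fold change of -0.39 ± 0.117 (SE) was larger in size than that of Sox18 and was not called (adjusted p = 0.0873, 95% interval -0.67 to -0.10, not adjusted for the number of genes tested). Sox17 was called lower without control library 2 (-0.47, adjusted p = 0.0468) and with DESeq2 (-0.38, adjusted p = 0.00986). Leaving out any other single library gave no call. The adjusted p then ranged from 0.105 without control library 3 (-0.27) to 0.234 without mutant library 2 (-0.37). An antisense gene, Gm37587, shares 804 exon bases with Sox17. It had 0.171 to 1.1 CPM in control and 0.245 to 1.52 CPM in mutant libraries, a small part of the level of Sox17.

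The make-up of SoxF RNA differed between the groups. The summed SoxF level was 325, 324 and 338 RPKM in control and 286, 286 and 291 RPKM in mutant libraries. Sox7 made up 24.5 ± 0.864% of it in control and 31.2 ± 0.244% in mutant libraries (SD, n = 3), Sox18 69.7 ± 0.425% and 63.7 ± 0.61%, and Sox17 5.78 ± 0.692% and 5.07 ± 0.395%. The shares of Sox7 and Sox18 did not overlap between groups, while those of Sox17 did. The ratio of Sox7 to Sox18 was 0.363, 0.356 and 0.336 in control and 0.485, 0.485 and 0.5 in mutant libraries. No test was made on these shares and ratios. The size of each share depends on the exon length used. This was the union over all transcripts, 3299 bases for Sox7 (1 transcript), 4772 for Sox17 (8) and 1620 for Sox18 (1).

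**Figure D2:**
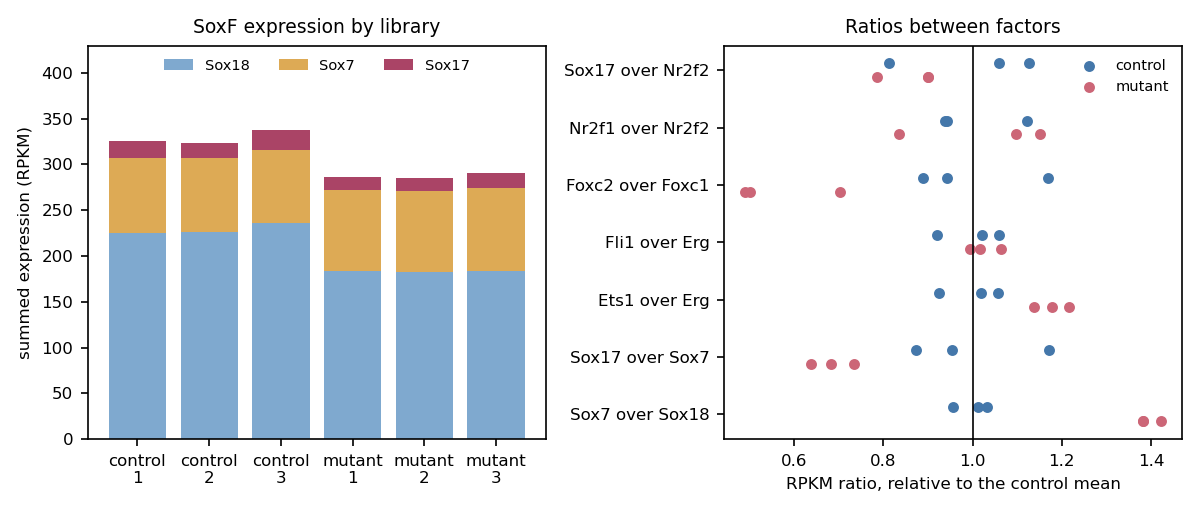
Left, summed RPKM of Sox18, Sox7 and Sox17 in each library (stacked bars). Right, RPKM ratios between pairs of factors in each library (points) relative to the control mean (vertical line at 1). Sox7 over Sox18 lies above 1 in all mutant libraries, and Sox17 over Nr2f2, Nr2f1 over Nr2f2 and Fli1 over Erg overlap between groups.

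The COUP-TF genes encode orphan nuclear receptors. Nr2f2, the venous factor, had 53.3, 62.8 and 59.9 CPM in control and 52.4, 48.7 and 54.2 CPM in mutant libraries. Control library 1 lay below mutant library 3, so the groups overlapped. The log2 fold change was -0.18 ± 0.071 (SE, adjusted p = 0.151, 95% interval -0.35 to -0.01, not adjusted). Nr2f1 had 17.6, 17.3 and 16.6 CPM in control and 16.9, 16.5 and 13.3 CPM in mutant libraries. Mutant library 3 stood apart, and without it the log2 fold change moved from -0.14 ± 0.101 (SE) to -0.03 (adjusted p = 0.445 and 0.834). Neither gene was called under any of the 14 alternatives. Antisense genes share 643 exon bases with Nr2f2 (B130024G19Rik, 0.501 CPM or less in every library) and 123 with Nr2f1 (A830082K12Rik, 2.85 to 3.77 CPM).

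The RPKM ratio of the arterial factor Sox17 to the venous factor Nr2f2 was 2.98, 2.29 and 3.17 in control and 2.21, 2.54 and 2.54 in mutant libraries. Mural cells and fibroblasts also express Nr2f2, and their part in this ratio was not tested. Control library 2 lay within the mutant range. The ratio of Nr2f1 to Nr2f2 overlapped as well, at 0.499 ± 0.0524 in control and 0.513 ± 0.0843 in mutant libraries (SD, n = 3).

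The Foxc genes encode forkhead factors of arterial and lymphatic vessels that are also made by mural and meningeal cells. Foxc2 had the lowest level and the largest change of the 10 factors. It had 6.38, 4.72 and 4.97 CPM in control and 3.47, 2.45 and 2.51 CPM in mutant libraries, from about 46 to 127 read pairs per library. All mutant libraries lay below all controls, with library 1 the highest in each group. Foxc2 fell 1.91-fold (log2 fold change -0.93 ± 0.189 SE, adjusted p = 0.0159), a change at percentile 93.2 of the absolute changes of all tested genes. The call was lost on leaving out control library 1 (log2 fold change -0.78, adjusted p = 0.059), mutant library 2 (-0.83, adjusted p = 0.058) or mutant library 3 (-0.85, adjusted p = 0.0545).

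Foxc1 was far more abundant than Foxc2 in RPKM. It had 121, 118 and 117 CPM in control and 109, 111 and 111 CPM in mutant libraries, without overlap. Its log2 fold change of -0.10 ± 0.033 (SE) was not called (adjusted p = 0.0848). It was called when only genes with a mean of at least 5 CPM were tested (adjusted p = 0.0465). The RPKM ratio of Foxc2 to Foxc1 was 0.113, 0.0861 and 0.0912 in control and 0.0681, 0.0474 and 0.0485 in mutant libraries, without overlap.

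Markers of cells that could carry these 2 genes into the libraries moved in the same samples. The 6 smooth muscle markers summed to 481 to 512 CPM in control and 243 to 266 CPM in mutant libraries, with 5 of 6 lower and none at 0. The 8 fibroblast markers summed to 827 to 937 and 542 to 722 CPM, with 2 of 8 lower. Of the 8 pericyte markers 5 were higher and 1 lower, and they summed to 3755 to 3849 and 4027 to 4145 CPM. The part of these cells in the values of Foxc1, Foxc2 and Nr2f2, which mural cells and fibroblasts also express, was not tested.

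RefSeq promoter windows (GRCm38.p6, from 250 bases before to 50 after a transcript start) were at hand for 5 of the 10 factors, 9 windows in all, for Nr2f1, Nr2f2, Foxc1, Erg and Gata2. They were searched on both strands for short core motifs. The letters were TGGGAA for Rbpj, ACAAT for SOX factors, CCGGAA for ETS factors, AGATAA for zinc-finger factors of the Gata family, TGTTTAC for forkhead factors and AGGTCA for the half-site of COUP-TFs. No match overlapped another. The Rbpj letters stood in 2 of the 9 windows, that of Foxc1 and the third of Erg, and in 25.6% of all 32851 promoter windows of the same length. The forkhead letters stood in the second window of Nr2f1 and in 3.65% of all windows. Foxc1 is shown because it holds the letters of the deleted factor at bases 257 to 262 and an ETS core, found in 14.9% of all windows, at bases 189 to 194, both in capitals (chr13:31806396-31806695, plus strand, bases counted from 1 at the 5′ end).
Foxc1: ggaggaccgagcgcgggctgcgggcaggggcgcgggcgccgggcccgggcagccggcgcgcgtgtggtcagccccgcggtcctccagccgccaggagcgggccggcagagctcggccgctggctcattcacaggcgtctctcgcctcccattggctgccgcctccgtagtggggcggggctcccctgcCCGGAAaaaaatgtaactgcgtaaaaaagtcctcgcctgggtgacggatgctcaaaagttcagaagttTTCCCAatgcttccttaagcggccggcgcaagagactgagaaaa

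The ETS genes Ets1 and Erg encode activators of endothelial genes, Erg being close to specific to endothelium and Ets1 being made by lymphocytes too. Ets1 had 310, 332 and 301 CPM in control and 375, 382 and 420 CPM in mutant libraries. All mutant libraries lay above all controls, mutant library 3 highest. Ets1 rose 1.25-fold (log2 fold change 0.32 ± 0.056 SE, adjusted p = 0.00784), and the call held under all 14 alternatives. The 8 lymphocyte markers summed to 15.3 to 18.6 CPM in control and 17.6 to 19.4 CPM in mutant libraries. None was called, their median log2 fold change was 0.45, and none was at 0 in every library. The T cell genes Cd3e and Cd3g had 0.277 ± 0.116 and 0.772 ± 0.214 CPM in control and 0.778 ± 0.162 and 1.38 ± 0.19 CPM in mutant libraries (SD, n = 3, adjusted p = 0.0553 and 0.0913). The B cell gene Ms4a1 had 1.61 ± 0.296 and 2.47 ± 0.274 CPM (adjusted p = 0.0804). For these 3 genes and Il2rb (1.49 ± 0.298 and 1.92 ± 0.0855 CPM, adjusted p = 0.284) every mutant library lay above every control. Of all tested genes, 16.8% did so. The B cell gene Cd79b, at 6.26 ± 0.208 and 5.1 ± 0.721 CPM, lay below in every mutant library (adjusted p = 0.193). The groups overlapped for Cd2, Cd79a and Nkg7. The part of lymphocytes in the value of Ets1 was not tested.

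Erg had 177, 183 and 189 CPM in control and 185, 196 and 201 CPM in mutant libraries, and the groups overlapped. The log2 fold change was 0.08 ± 0.043 (SE), not called (adjusted p = 0.272, 95% interval -0.02 to 0.19). Fli1, the nearest relative of Erg, had 177, 177 and 165 CPM in control and 186, 184 and 194 CPM in mutant libraries. Its groups did not overlap, and its change of 0.12 ± 0.042 (log2, SE) was not called either (adjusted p = 0.104). The RPKM ratio of Ets1 to Erg was 0.716, 0.743 and 0.65 in control and 0.828, 0.8 and 0.855 in mutant libraries, without overlap. That of Fli1 to Erg overlapped, at 0.941 ± 0.068 and 0.965 ± 0.033 (SD, n = 3).

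Of the 3 windows of Erg, the third is shown because it holds the Rbpj letters and 4 other matches, in capitals from 5′ to 3′ a COUP-TF half-site, a SOX, a GATA, the Rbpj and a further SOX core (chr16:95459299-95459598, minus strand). The SOX letters stood in 31.0%, the GATA letters in 11.2% and the half-site in 16.3% of all windows. A match of letters is a description and shows no binding.
Erg: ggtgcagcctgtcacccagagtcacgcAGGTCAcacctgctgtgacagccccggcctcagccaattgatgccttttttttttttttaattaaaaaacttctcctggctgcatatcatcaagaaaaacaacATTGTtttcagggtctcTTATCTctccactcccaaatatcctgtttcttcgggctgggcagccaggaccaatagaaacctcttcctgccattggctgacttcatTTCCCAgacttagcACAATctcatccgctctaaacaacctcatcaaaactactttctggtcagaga

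Gata2 encodes a zinc-finger factor of endothelial and blood progenitor cells. It had 102, 107 and 108 CPM in control and 74.0, 69.7 and 79.3 CPM in mutant libraries. The highest mutant library lay well below the lowest control. Gata2 fell 1.42-fold (log2 fold change -0.51 ± 0.055 SE, adjusted p = 0.00083), and the call held under all 14 alternatives. The 8 markers of mast cells and granulocytes, of which mast cells also make Gata2, summed to 130 to 147 CPM in control and 179 to 197 CPM in mutant libraries, with 2 of 8 higher, 1 lower and none at 0. Most of that sum was Kit, at 88.1 ± 2.6 and 127 ± 1.62 CPM (SD, n = 3), which endothelial cells express too. The mast cell protease gene Cma1 fell from 3.68 ± 0.406 to 1.99 ± 0.418 CPM (adjusted p = 0.0213) and Cpa3 had 3.39 ± 0.132 and 2.15 ± 0.627 CPM (adjusted p = 0.0903). The 7 erythroid markers in the table summed to 4425 to 4551 CPM in control and 3013 to 3236 CPM in mutant libraries, with 3 lower, 1 higher and none at 0 in every library. The globin genes Hba-a1 and Hbb-bs fell by 0.51 and 0.53 and the haem synthesis gene Alas2 by 0.58 on the log2 scale (adjusted p = 8.59e-05, 0.000134 and 0.000707), while Epor rose by 0.45. The erythroid factor Klf1 had 0.245 CPM or less in every library. The part of mast cells and erythroid cells in the values of Gata2 and its blood partner Lyl1 was not tested.

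Both promoter windows of Gata2 are shown because Gata2 was the only called factor among the 5 that had windows. Neither held any of the 6 motifs, which says only that these letters are not in these windows (plus strand, chr6:88193641-88193940 and chr6:88198414-88198713). Their GC content was 69.3% and 73.7%.
Gata2, first start: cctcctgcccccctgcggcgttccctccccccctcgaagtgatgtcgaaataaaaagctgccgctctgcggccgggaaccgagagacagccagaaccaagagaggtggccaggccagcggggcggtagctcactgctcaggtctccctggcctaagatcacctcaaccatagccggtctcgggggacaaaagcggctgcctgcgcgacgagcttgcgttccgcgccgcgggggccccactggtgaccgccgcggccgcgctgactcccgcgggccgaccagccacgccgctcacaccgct
Gata2, second start: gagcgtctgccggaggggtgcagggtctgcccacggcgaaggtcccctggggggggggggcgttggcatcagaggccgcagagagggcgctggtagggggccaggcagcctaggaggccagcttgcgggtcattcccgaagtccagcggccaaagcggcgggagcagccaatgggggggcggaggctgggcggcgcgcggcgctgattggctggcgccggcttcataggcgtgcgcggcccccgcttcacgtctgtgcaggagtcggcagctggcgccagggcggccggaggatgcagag

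**Figure D3:**
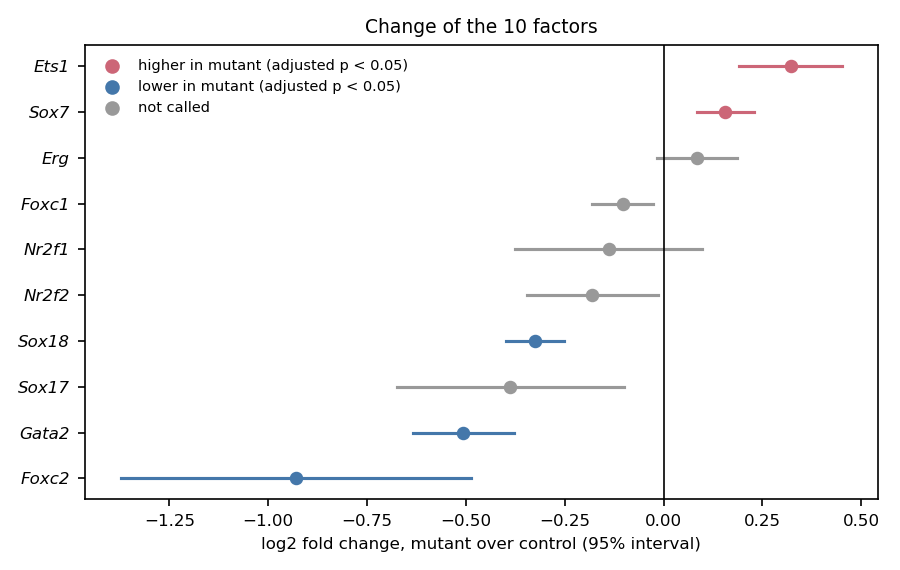
Log2 fold change of each factor, mutant over control (horizontal axis), as point and 95% interval. The interval was derived from the F statistic of the edgeR quasi-likelihood test and is not adjusted for the number of genes tested. Of the called factors, Ets1 and Sox7 lie above 0 and Sox18, Gata2 and Foxc2 below it. The intervals of Sox17, Nr2f2 and Foxc1, which were not called, also lie below 0. The interval of Foxc2 is the widest, from -1.37 to -0.49.

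Across the 6 libraries, the genes whose log2 CPM followed that of Ets1 most closely, among 7721 others with a mean of at least 20 CPM, were Mef2d, Kpnb1 and Fkbp9 (Pearson r 0.997, 0.997 and 0.995). Those most like Foxc2 were Raly, the Notch target Hey1 and Hectd4 (r 0.996, 0.992 and 0.985). These values describe 6 points that fall into 2 groups and share the group difference and the library scaling. With Ets1, 896 genes had an r above 0.9, which is 11.6%, and with Foxc2 360, which is 4.66%.

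A choice of other genes of these factor families, made with earlier results of these data known, was read beside the 10. It is not a background for them. Of all tested genes 14.4% were called, and of those with a mean of at least 5 CPM 20.8%. Of 15 further ETS genes tested, 5 were higher and none lower, with a median log2 fold change of 0.10. Etv4, a factor of the PEA3 group that responds to growth factor signalling, rose from 5.36 ± 0.57 to 13.5 ± 1.12 CPM (SD, n = 3) and its relative Etv5 from 30.3 ± 1.49 to 38.6 ± 1.31 CPM. Ets2, the nearest relative of Ets1, rose from 76.9 ± 1.4 to 138 ± 5.83 CPM (0.85 ± 0.042 SE in log2, adjusted p = 2.45e-05), and Elf4 rose by 0.42 on the log2 scale.

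Of 10 SOX genes outside the SoxF group, 1 was called, Sox13, which fell from 147 ± 1.23 to 114 ± 2.17 CPM (adjusted p = 0.000369). Sox12 had the most negative log2 fold change of that list, -2.13 ± 1.40 (SE), and was not called (adjusted p = 0.432): control library 1 had 48.5 CPM and the other 5 libraries 2.43 to 6.08 CPM. Of 10 forkhead genes outside Foxc, 2 were higher and 3 lower. Foxf1 fell from 52.3 ± 1.06 to 38.1 ± 0.857 CPM (adjusted p = 0.000446), Foxl2 by 0.31 and Foxo1 by 0.22 on the log2 scale, and Foxf2 rose by 0.21. Foxl2 lost its call on leaving out control library 1 (adjusted p = 0.0797), control library 3 (0.0631), mutant library 1 (0.0534) or mutant library 2 (0.0606). Foxo1 lost it when control library 2 (0.071), mutant library 1 (0.0538) or mutant library 2 (0.0707) was left out, and Foxf2 on leaving out control library 1 (0.0608) or control library 2 (0.0582). Foxo1 shares 674 exon bases with an antisense gene.

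Among 8 tested GATA genes and partners, none was higher and 2 were lower. Lyl1, a partner of Gata2 in endothelial and blood cells, fell from 34.7 ± 1.08 to 22.3 ± 1.07 CPM, a change of -0.64 ± 0.060 (log2, SE, adjusted p = 0.000405). Gata3 fell from 3.95 ± 0.326 to 2.56 ± 0.114 CPM (adjusted p = 0.0165). Its adjusted p rose to 0.0723 when control library 1 was left out, 0.0625 for control library 2 and 0.0533 for mutant library 2. Gata3 shares 155 exon bases with an antisense gene and 77 with a gene on its own strand. The other partners Tal1 (50.7 and 49.7 CPM) and Lmo2 (153 and 145 CPM) were not called. Gata4, and Etv2 in the ETS list, had no count in any library. Among 7 nuclear receptors related to the COUP-TFs or pairing with them, Rxra alone was called. It fell by 0.23 on the log2 scale (adjusted p = 0.0105), and lost its call on leaving out control library 2 (0.053) or mutant library 2 (0.0516).

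Of 15 other factors of endothelial fate, 2 were higher and 6 lower. Meox1 rose from 92.1 ± 6.09 to 156 ± 6.03 CPM (adjusted p = 0.000129). The flow-responsive factors Klf2 and Klf4 fell by 0.61 and 0.55 on the log2 scale. Hey2, a Notch target and partner in arterial fate, had 14.7, 14.5 and 12.5 CPM in control and 11.2, 14.1 and 12.3 CPM in mutant libraries and was not called (adjusted p = 0.454). Its relative Hey1 fell by 0.52 (adjusted p = 0.0493), a call that was lost on leaving out control library 1 (0.0869), 2 (0.0744) or 3 (0.104) or mutant library 2 (0.154) or 3 (0.139), when scaling by total alone (0.062), and when no low-count filter was used (0.0879).

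Genes that lie downstream of the 10 factors, or mark the vessels they specify, moved in both directions. Of 12 arterial genes, 3 were higher and 7 lower, with a median log2 fold change of -0.28. Efnb2, the arterial ephrin, fell from 112 ± 1.35 to 65.7 ± 3.41 CPM, a change of -0.77 ± 0.046 (log2, SE, adjusted p = 5.61e-05), Sema3g by 1.11 and Bmx by 0.77 on the log2 scale. Gja5 fell by 1.91 (adjusted p = 0.0274), a call lost on leaving out control library 1 (0.0902), 2 (0.0854) or 3 (0.083) or mutant library 2 (0.0993) and when no low-count filter was used (0.0566). Dll4, a shared target of SoxF, Foxc and ETS factors, rose from 257 ± 5.12 to 297 ± 11.8 CPM, a change of 0.21 ± 0.039 (log2, SE, adjusted p = 0.01). Notch1, named with Dll4 above, fell from 462 ± 25.3 to 388 ± 14.1 CPM, a change of -0.25 ± 0.049 (log2, SE, adjusted p = 0.0126). Dll4 shares 214 exon bases with an antisense gene, and Gja5 shares 165 with Gpr89 on the other strand. Notch1 shares 1068 with 0610009E02Rik and 414 with Gm13568, both on the other strand.

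Of 10 venous genes, 3 were higher and 3 lower, and the median log2 fold change was -0.11. The venous receptor gene Ephb4 had 208, 223 and 275 CPM in control and 168, 174 and 226 CPM in mutant libraries, which overlapped (adjusted p = 0.315). Nrp2 had 227 ± 5.92 and 226 ± 10.1 CPM (adjusted p = 0.974), while the apelin receptor gene Aplnr rose by 0.32 and Emcn by 0.47 on the log2 scale. Vcam1 fell by 0.88, Slc38a5 by 0.49 and Dab2 by 0.39. Of 16 pan-endothelial genes, 3 were higher and 3 lower (median 0.01). Egfl7 rose by 0.43 and Pecam1 by 0.41, and Tek fell by 0.62 and Nos3 by 0.39. Egfl7 shares 264 exon bases with Gm20532 on its own strand. Nos3 shares 1040 with an antisense gene and 294 with Atg9b on the other strand.

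**Figure D4:**
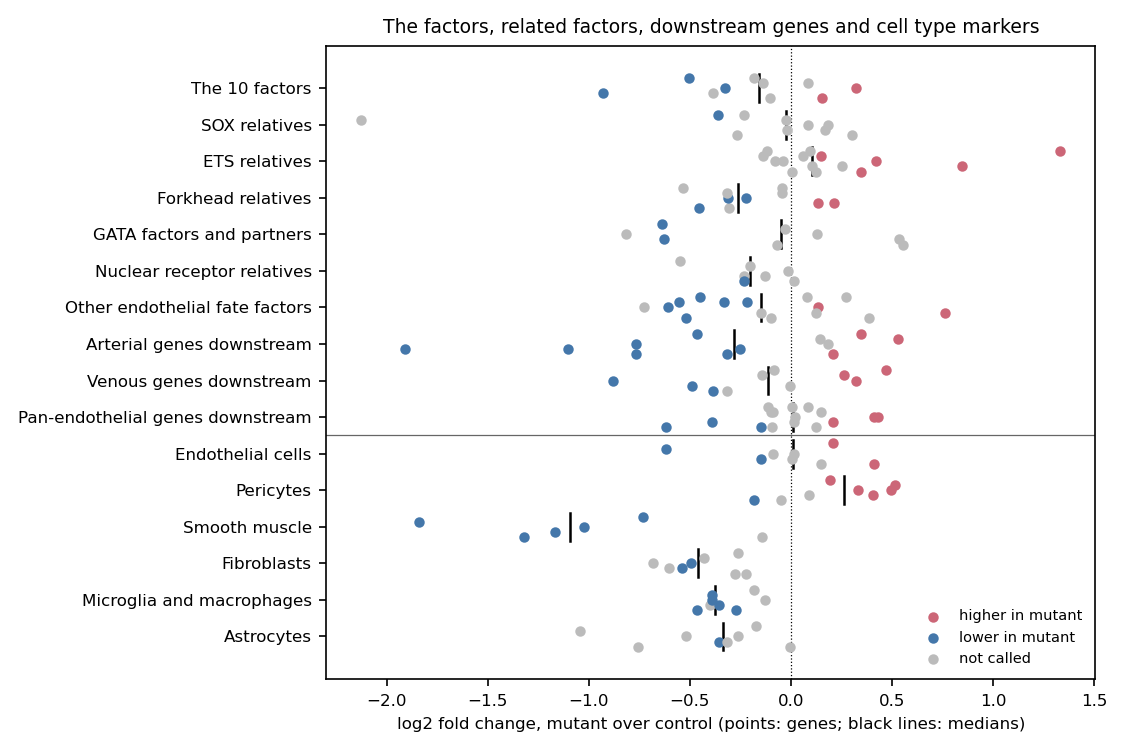
Log2 fold change, mutant over control, of each tested gene (points) in the 10 factors, related factors, downstream genes and, under the line, cell type markers, with the median of each list (black lines). Called ETS relatives all lie above 0, and smooth muscle, fibroblast, microglia and astrocyte medians lie below 0.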

How the data were processed

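Gene expression was measured in 3 control and 3 mutant libraries. Values deposited by the authors are estimated counts of each gene, whole and without normalization. Tools named in the submitters' processing notes are StringTie 1.3.4, HISAT2, edgeR, cutadapt 1.10 and FastQC 0.10.1, and the build named is GRCm39. The annotation and whether counting used the strand are not given in the sources used here. Low counts pile up at multiples of 4 (1118 to 1190 genes at a count of 4, 316 to 365 at 3), so precision follows read pairs, not counts. The deposited quality table gives read counts per library (50226902 to 53986268 valid reads) and the percent of valid reads and of GC.

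All 55450 identifiers matched GENCODE M21, built on GRCm38, which gave symbols and exon lengths. Counts were filtered with filterByExpr, scaled by TMM and tested with the edgeR 4.0.16 quasi-likelihood test (R 4.3.3) over 19549 genes, with group as the only term and Benjamini-Hochberg adjustment, which is the adjusted p in every sentence. Estimated counts were already whole, so rounding changed nothing. CPM and RPKM use TMM-scaled totals, RPKM also the union of exons.

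The members and gene lists were chosen with earlier results of these data known. All members are given, and of each list at most the 4 called genes with the largest change and a mean of at least 1 CPM, plus Fli1, Hey1, Hey2, Dll4, Efnb2, Gja5, Ephb4, Nrp2, Aplnr and Rbpj. Sox12, Tal1, Lmo2, Notch1 and the single genes of the cell type marker lists were named after their values were seen. Alternatives were RLE factors, library size only, no filter, a 5 CPM filter, DESeq2 1.42.0, limma-voom (limma 3.58.1), counts divided by 4, the replicate block and each library left out.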

Additional observations from a re-analysis of the deposited data

How the results depend on the processing

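The 10 factors were refitted under 14 alternatives, 139 fits in all, since Foxc2 has no value under the 5 CPM filter. In 130 the direction and the side of the threshold stayed, in 5 a call was lost, in 4 one was gained, and none reversed. With a replicate block the count of factors called higher was 1 (Sox7 had an adjusted p of 0.0604), and Sox17 (0.0208) and Ephb4 (0.00738) were called, while Foxl2 (0.0512) and Gja5 (0.0705) were not. The replicate numbers did not pair the libraries: deviations of same-numbered libraries correlated at 0.013, 0.012 and 0.029, and not every library correlated best with its own number. With 1 library left out, 1 to 2 factors were called higher and 2 to 4 lower, and over all genes 1100 to 1270 were higher and 807 to 1125 lower, against 1335 with all libraries (807 when control library 1 was dropped, 861 for control library 2, 865 for mutant library 2). The log2 fold change of Nrp2 turned positive at 0.0027 with RLE factors, 0.0027 without the filter, 0.0027 with DESeq2, 0.0076 with counts divided by 4, and ranged from -0.036 to 0.023 over the fits with 1 library left out, being positive in 4 of them (0.00087, 0.023, 0.018 and 0.020). The cause was not tested. Low counts limit Foxc2, and the strand of counting limits genes with antisense partners. Not every overlapping partner of a named gene is given here.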
